A study of Mus musculus with 7 samples.

Results

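The placement of 9 pluripotency genes, Nanog, Pou5f1, Sox2, Klf4, Esrrb, Dppa3, Dppa4, Tdgf1 and Lin28a, was examined relative to the nuclear lamina of mouse fibroblasts. The set was given by gene name, and all 9 genes were found among the 21887 protein-coding genes of the RefSeq annotation of GRCm38.p6 (the build mm10). Each gene body was placed against a deposited list of 1437 lamin-associated domains (LADs), the stretches of chromatin in contact with the protein layer under the nuclear envelope, as inside a LAD, cut by a LAD border or outside.

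The series profiled iMEF, fibroblast lines derived independently from embryos of 1 mouse colony, by CUT&RUN, in which a nuclease tethered to an antibody releases the DNA near its target. Of its 7 libraries, 2 profiled Lamin B1, a protein of the lamina, 2 were IgG controls, 2 profiled H3K9me2 (1 for each of 2 antibodies) and 1 profiled H3K14ac. Only the merged LAD list was used here, which is named as wild type, so there is 1 call for each position, no replicate error and no measured read depth. The labels name no treatment or mutation, and no transcript levels were used, so the fibroblast identity was not checked by markers. The list describes a population of cells, in which contact in some cells cannot be told apart from contact in all.

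Pluripotency is the capacity of cells of the early embryo, and of embryonic stem cells, to form all tissues of the body. It rests on a network of transcription factors, with Oct4 (encoded by Pou5f1), Sox2 and Nanog at its centre and Klf4 and Esrrb as further members, that bind each other's regulatory regions. Fibroblasts do not run this network, and forced expression of Oct4, Sox2 and Klf4 with Myc can return them to a pluripotent state. LADs are known as gene-poor chromatin that is mostly repressed, and many genes leave or join the lamina as cells differentiate.

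Of the 9 genes, 1 lay wholly inside a LAD, 0 were cut by a border and 8 lay outside. Dppa4 was the gene inside. Over all protein-coding genes, 21.8% lay wholly inside a LAD, 3.36% were cut by a border and 74.9% had no overlap, so the count of 1 of 9 fell short of the first share by about 1 gene and nothing is read from it. The 8 genes outside were not alike: the nearest LAD was 144.7 kb from Dppa3, 176.0 kb from Sox2 and 192.1 kb from Nanog, but 2345 kb from Lin28a. With only LADs of at least 100 kb counted, the distance of Dppa3 became 276.5 kb, and with only those of at least 500 kb that of Lin28a became 5450 kb. The map of LADs around the 9 genes shows these settings side by side.

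**Figure D1:**
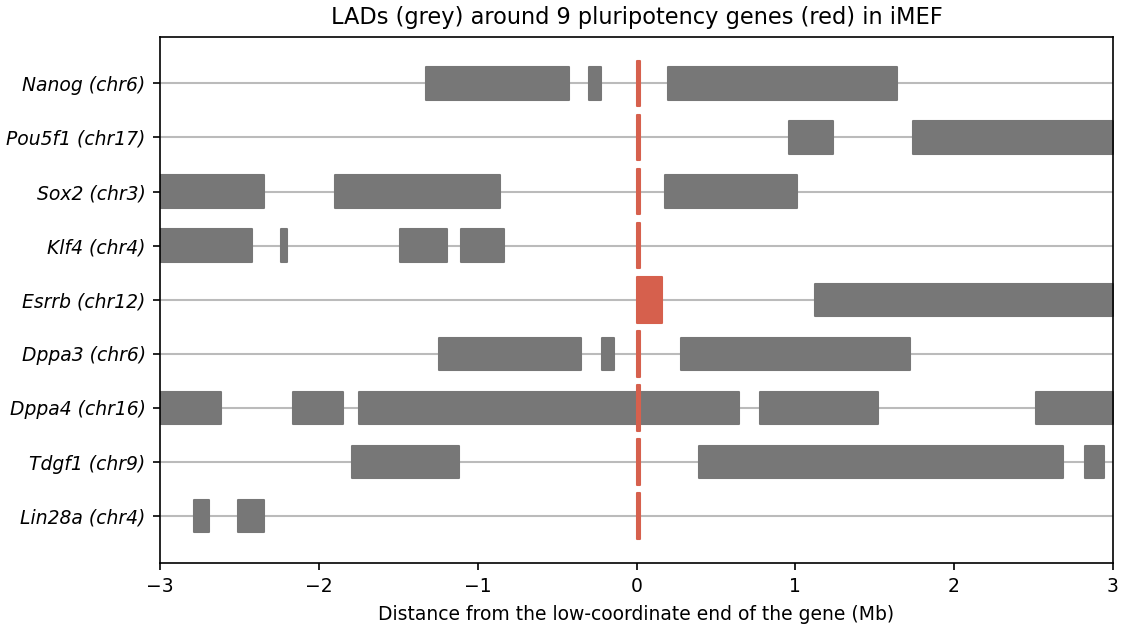
LADs (grey bars) within 3 Mb of each of the 9 genes (red), with distance in Mb from the gene's low-coordinate end on the x axis and 1 row per gene. Dppa4 lies within a grey bar, Nanog, Dppa3, Sox2 and Tdgf1 have LADs on both sides within the plotted range, and Lin28a has none closer than 2345 kb.

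The promoters of 4 transcription factor genes of the set are shown because their LAD settings differ, together with that of Zfp42, a marker of embryonic stem cells that is not a member and lay inside a LAD. Each window runs from 250 bases before the start site to 50 after it, 5′ to 3′ on the gene's strand, from RefSeq (GRCm38.p6). Capitals mark matches, on either strand, to 4 motifs: ATGCAAA (an octamer core, bound by POU factors), ACAATG (bound by SOX factors), GGGTGTGG (a KLF-type box) and TCAAGGTCA (an ESRRB-type element). The windows are Nanog, chr6:122707239-122707538 (plus strand), Pou5f1, chr17:35505782-35506081 (plus), Sox2, chr3:34649745-34650044 (plus), Klf4, chr4:55532426-55532725 (minus), and Zfp42, chr8:43306960-43307259 (minus).
Nanog: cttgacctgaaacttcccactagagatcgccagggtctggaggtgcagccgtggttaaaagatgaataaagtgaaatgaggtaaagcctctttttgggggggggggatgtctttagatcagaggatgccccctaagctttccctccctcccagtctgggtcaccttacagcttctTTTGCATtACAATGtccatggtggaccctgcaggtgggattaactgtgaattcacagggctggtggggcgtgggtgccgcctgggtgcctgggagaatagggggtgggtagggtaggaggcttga
Pou5f1: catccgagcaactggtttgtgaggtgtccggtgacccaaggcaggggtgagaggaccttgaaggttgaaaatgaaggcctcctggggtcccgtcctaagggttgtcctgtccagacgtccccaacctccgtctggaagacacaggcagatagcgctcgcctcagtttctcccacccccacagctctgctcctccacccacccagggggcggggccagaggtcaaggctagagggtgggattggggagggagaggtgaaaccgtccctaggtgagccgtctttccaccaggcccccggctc
Sox2: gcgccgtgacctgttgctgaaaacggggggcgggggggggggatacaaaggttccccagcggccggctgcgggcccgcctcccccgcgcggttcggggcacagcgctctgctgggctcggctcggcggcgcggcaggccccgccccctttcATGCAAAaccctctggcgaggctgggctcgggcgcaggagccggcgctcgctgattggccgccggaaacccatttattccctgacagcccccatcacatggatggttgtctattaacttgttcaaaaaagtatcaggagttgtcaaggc
Klf4: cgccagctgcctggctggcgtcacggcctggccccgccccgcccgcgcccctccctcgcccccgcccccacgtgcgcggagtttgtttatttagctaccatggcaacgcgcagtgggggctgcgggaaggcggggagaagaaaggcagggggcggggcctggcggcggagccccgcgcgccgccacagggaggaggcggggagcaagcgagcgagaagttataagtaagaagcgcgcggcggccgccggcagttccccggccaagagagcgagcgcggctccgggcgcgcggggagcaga
Zfp42: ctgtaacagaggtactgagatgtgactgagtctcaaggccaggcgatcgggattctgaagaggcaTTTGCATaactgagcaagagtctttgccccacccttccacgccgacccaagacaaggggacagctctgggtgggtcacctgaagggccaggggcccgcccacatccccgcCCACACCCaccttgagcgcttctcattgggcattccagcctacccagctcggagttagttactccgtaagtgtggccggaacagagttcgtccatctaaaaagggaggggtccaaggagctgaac

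Nanog, a homeodomain transcription factor gene (NCBI gene 71950; chromosome 6, 122707489 to 122714633), lay outside LADs. The LAD on its low-coordinate side ended 225.7 kb away and that on its high-coordinate side began 192.1 kb away. The nearer distance fell short of the median distance to the nearest LAD over the 16387 protein-coding genes outside LADs, which was 800.7 kb (quartiles 261.2 and 1834 kb). The farther flanking LAD was at a median of 2845 kb (quartiles 1253 and 5176 kb) over 15633 such genes with LADs on both sides. Nanog's farther distance also fell short of that median. The LAD upstream measured 72.5 kb (122409260 to 122481759) and the one downstream 1442 kb (122906759 to 124349253). The LAD-free interval between them was 425.0 kb long and held 10 protein-coding genes.

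Dppa3 (NCBI gene 73708; chromosome 6, 122626424 to 122630271) encodes Stella, a protein of the oocyte and early embryo that guards the maternal genome against demethylation. It shared the 425.0 kb interval with Nanog and was the nearest protein-coding gene on Nanog's low-coordinate side, 77.2 kb away. Dppa3 lay 144.7 kb from the 72.5 kb LAD and 276.5 kb from the 1442 kb LAD. In the list as deposited it was the closest to a LAD of the 8 genes outside, a place that rested on the 72.5 kb LAD: counting only LADs of at least 100 kb, its distance was 276.5 kb and Sox2 and Nanog were closer. Its neighbour Gdf3, a TGF-beta family ligand expressed in pluripotent cells, was in the same interval and 123.6 kb from a LAD. Other genes of the interval included Mfap5, Apobec1, Slc2a3, Foxj2, C3ar1 and Necap1. Without transcript levels, none of them was assigned to a cell type. Slc2a3, which encodes a glucose transporter, was the nearest gene on Nanog's other side, 13.2 kb away.

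Sox2, which encodes an HMG-box transcription factor (NCBI gene 20674; chromosome 3, 34649995 to 34652461), had LADs 859.0 kb upstream and 176.0 kb downstream. The interval measured 1037 kb and held 5 protein-coding genes, Ttc14, Ccdc39, Fxr1, Dnajc19 and Sox2 itself. All 4 of the others lay on the upstream side. No protein-coding gene stood between Sox2 and the downstream LAD, and this LAD of 832.5 kb (34828501 to 35660997) contained 0 midpoints of protein-coding genes. The next protein-coding gene beyond it was Atp11b, 1102 kb from Sox2 and 93.0 kb from the LAD. The long non-coding RNA gene Sox2ot (34560381 to 34677993), which overlaps Sox2, also lay outside LADs over its full 117.6 kb.

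Pou5f1 (NCBI gene 18999; chromosome 17, 35506032 to 35510777) encodes the POU factor Oct4. It lay 958.2 kb from the LAD on its high-coordinate side and 11972 kb from the one on the other side. The interval was 12935 kb long and held 421 protein-coding genes. By length it ranked 6 of the 1416 LAD-free intervals in the list. Its direct neighbours were the histocompatibility gene H2-Q10, 31.5 kb away, and Tcf19, 1.95 kb away, and both were outside LADs.

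Klf4 (NCBI gene 16600; chromosome 4, 55527137 to 55532475) encodes a zinc finger factor that fibroblasts and epithelia also use. LADs lay 833.9 kb and 4408 kb away, and the interval measured 5247 kb with 35 protein-coding genes. The nearest protein-coding genes were distant: Rad23b at 134.9 kb and Actl7b at 1208 kb. A LAD-free setting therefore went with few neighbouring genes, which is described further below.

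Esrrb (NCBI gene 26380; chromosome 12, 86361117 to 86521628), an orphan nuclear receptor gene and at 160.5 kb the longest of the set, was 963.3 kb from the LAD on the high-coordinate side and 3554 kb from that on the other. The nearer LAD was the longest of those flanking any member, at 4295 kb, and the farther one measured 90.0 kb. The interval of 4677 kb held 81 protein-coding genes. Gpatch2l and Vash1, the direct neighbours, were 66.5 kb and 157.1 kb away and lay outside LADs.

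Tdgf1 (NCBI gene 21667; chromosome 9, 110939608 to 110946158) encodes Cripto, a co-receptor for the ligand Nodal. It was 390.1 kb from a LAD of 2287 kb and 1116 kb from one of 675.0 kb. Its interval measured 1512 kb and held 36 protein-coding genes. The direct neighbours Fam240a and Lrrc2 were outside LADs, 22.7 kb and 5.39 kb from Tdgf1.

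Lin28a (NCBI gene 83557; chromosome 4, 134003330 to 134019196) encodes an RNA-binding protein that blocks maturation of let-7 microRNAs. It was the farthest of the 9 genes from any LAD, with 2345 kb on the low-coordinate side and 8151 kb on the other. The interval of 10512 kb ranked 10 of 1416 by length and held 205 protein-coding genes. Between Lin28a and the nearer LAD there were 52 protein-coding genes. Its neighbours Dhdds, 2.37 kb away, and Crybg2, 41.5 kb away, shared this LAD-free setting.

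Dppa4 (NCBI gene 73693; chromosome 16, 48283735 to 48294292) encodes a chromatin protein that acts with its paralog Dppa2. The gene lay inside a LAD of 2390.0 kb (46537021 to 48927012), 1747 kb from its low-coordinate border and 632.7 kb from the other. This LAD ranked 137 of 1437 by length and held 8 protein-coding genes, or 3.35 per Mb. Over all LADs the density was 3.92 protein-coding genes per Mb, and in the intervals between LADs it was 12.3. Dppa2 lay 16.0 kb from Dppa4 in the same LAD, 607.5 kb from the border. The others in it were Gm52257, Morc1 (needed in male germ cells), Trat1 (a T cell adaptor) and the resistin-like genes Retnlb, Retnla and Retnlg. LADs also flanked this domain on both sides, one of 320.0 kb and the other of 747.5 kb.

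Ordered by the distance to the nearest LAD as deposited, the 8 genes outside were Dppa3, Sox2, Nanog, Tdgf1, Klf4, Pou5f1, Esrrb and Lin28a. The order depended on short LADs. With LADs of at least 100 kb, Dppa3 came after Sox2 and Nanog, and with LADs of at least 500 kb, Esrrb at 963.3 kb also came before Pou5f1 at 1738 kb and Klf4 at 2421 kb. Distances of neighbouring genes in this order, such as the 958.2 kb of Pou5f1 and the 963.3 kb of Esrrb, have no replicate error to set them apart. Domain lengths fell on multiples of about 2.5 kb, so borders are known to no better than this step. The median of the 8 distances was 612.0 kb, against 800.7 kb over all protein-coding genes outside LADs. None of the 8 had a LAD within 100 kb (12.8% of protein-coding genes outside LADs did). Within 500 kb, 4 of 8 had one (38% of such genes), and within 1000 kb 7 of 8 (56.5%). The last count was 5 of 8 (44.6% of protein-coding genes outside) with LADs of at least 500 kb. Measured from the gene start site or midpoint it was 6 of 8, because Esrrb then lay at 1124 or 1044 kb. No background was computed for these 2 settings. The curve of distances shows that the members were spread over most of its range.

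**Figure D2:**
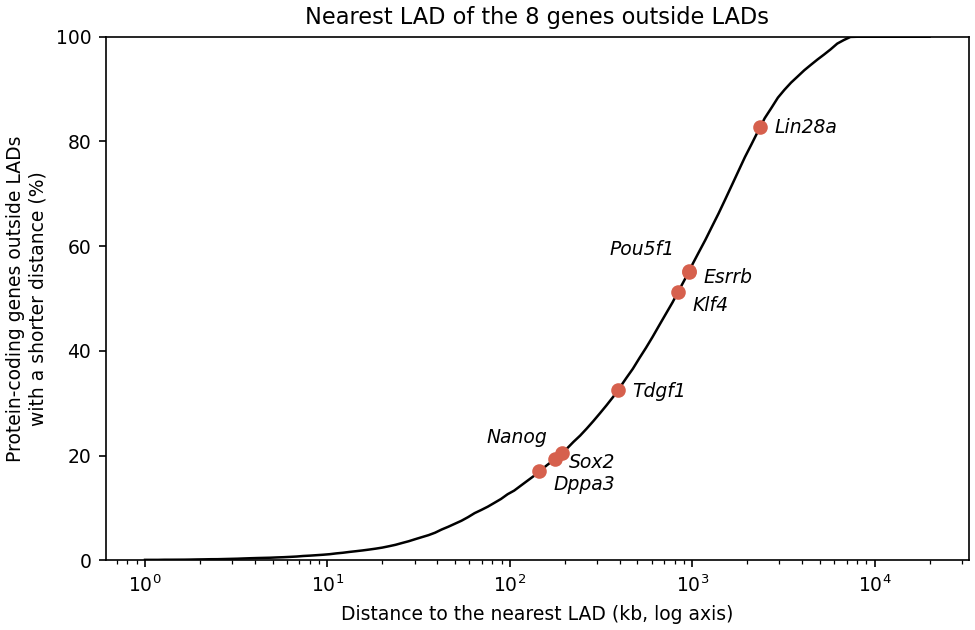
Share of the 16387 protein-coding genes outside LADs that lie closer to a LAD than the distance on the x axis (kb, log axis; black line), with the 8 genes outside LADs as red points. Dppa3, Sox2 and Nanog sit between 17.0% and 20.5%, Tdgf1 at 32.5%, Klf4, Pou5f1 and Esrrb between 51.2% and 55.3%, and Lin28a at 82.7%.

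The side of the nearer LAD was read relative to transcription for the 7 genes with a strand in the promoter table. In 6 of these 7 the LAD downstream of the gene was nearer than the one upstream, the exception being Tdgf1 with 390.1 kb upstream and 1116 kb downstream. For Klf4, for example, the values were 833.9 kb downstream and 4408 kb upstream. Over the 12479 protein-coding genes outside LADs with a strand and a LAD on each side, the downstream LAD was nearer in 50.0%. The count covers few genes and was not tested.

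Wider surroundings were measured as the share of bases in LADs within 1 Mb on each side of the gene. Dppa4 had 93.4%, Nanog 72.3%, Dppa3 72.3%, Sox2 48.2% and Tdgf1 30.4%. Klf4 had 8.28%, Pou5f1 2.09%, Esrrb 1.70% and Lin28a 0%. The first 5 were above the median over all protein-coding genes, 22.8% (quartiles 0% and 57.3%), and the other 4 below it. At this window size Nanog and Dppa3 were nearly as surrounded by LADs as the median gene overlapping a LAD, at 76.3%.

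The window size changed how the loci appeared. Within 250 kb each side, 5 of the 9 genes had 0% of bases in LADs, as did 56.7% of protein-coding genes, so this count was near the background. In this window Nanog had 16.2%, Sox2 14.7%, Dppa3 14.4% and Dppa4 100%, beside a median of 98.9% for genes overlapping a LAD. Within 2 Mb, Nanog and Dppa3 had 60.3%, beside a median of 67.8% for genes overlapping a LAD, Tdgf1 reached 57.0% and Esrrb 24.9%, while Lin28a stayed at 0%. LADs thus began at different distances from these genes, as the plot of LAD share by window shows.

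**Figure D3:**
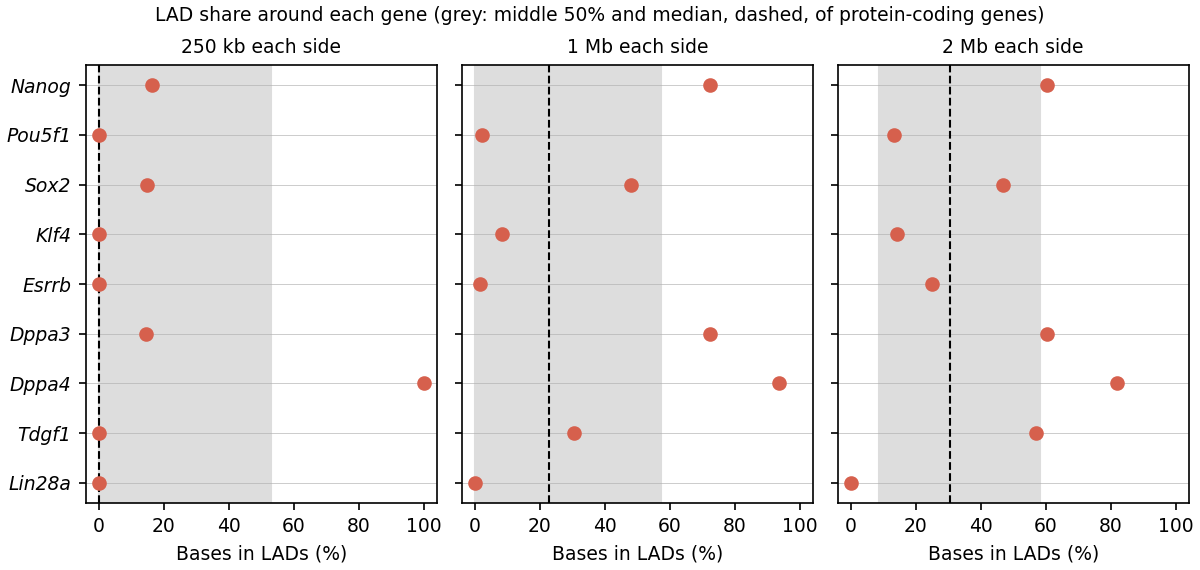
Percent of bases in LADs within 250 kb, 1 Mb and 2 Mb on each side of each gene (red points); the grey band spans the quartiles and the dashed line is the median over 21887 protein-coding genes. Dppa4 is highest in each panel, Nanog and Dppa3 rise from 16.2% and 14.4% to 72.3% in the 1 Mb panel, and Lin28a is at 0% throughout.

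LADs are gene-poor, so the number of protein-coding genes within 1 Mb each side was set beside the LAD share. Klf4 had 2 such neighbours and Sox2 had 4. Over the 650 protein-coding genes with at most 4 neighbours, the median LAD share was 76.8% (quartiles 51.7% and 93.2%), and 60.2% of these genes overlapped a LAD. With 8.28%, Klf4 had a low share for so sparse a region: 48 of the 650 genes (7.38%) had a share as low or lower. Sox2, with 48.2%, was just below the lower quartile.

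Nanog and Dppa3 were at the other side of this relation. They had 28 and 29 protein-coding neighbours, and the median LAD share for genes with 20 to 39 neighbours was 13.2% (upper quartile 44.3%), against their 72.3%. The LAD on their high-coordinate side held 19 protein-coding genes, or 13.2 per Mb, above the 3.92 per Mb of all LADs. Tdgf1 with 35 neighbours and Esrrb with 31 were within the quartiles of the same class. Pou5f1 had 106 neighbours and a LAD share of 2.09%, near the median of 4.81% for genes with at least 70. Dppa4 had 10 neighbours and its 93.4% was above the upper quartile of 58.7% for genes with 10 to 19.

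**Figure D4:**
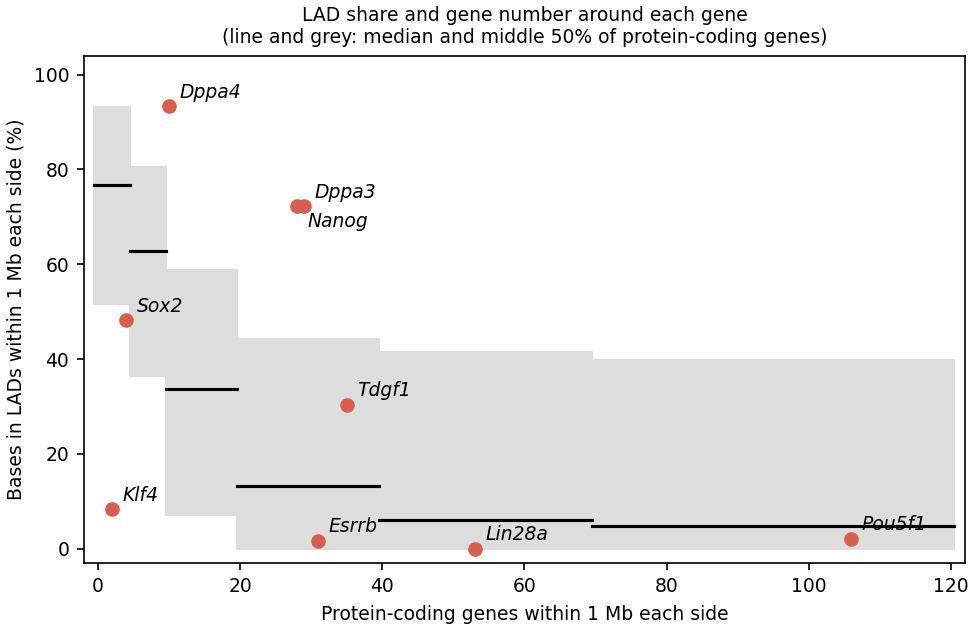
Percent of bases in LADs within 1 Mb each side against the number of protein-coding genes in the same window; black lines and grey bands give the median and quartiles of all protein-coding genes in 6 classes of gene number, and red points are the 9 genes. Klf4 (2 genes, 8.28%) lies below the grey band, Sox2 (4 genes, 48.2%) just below it, and Dppa4 (93.4%), Nanog and Dppa3 (72.3%) above it.

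Promoter sequence was compared with placement in the 7 members that have a promoter window in the table, which are those outside LADs other than Dppa3. The ratio of observed to expected CpG dinucleotides was 0.97 for Klf4, 0.82 for Sox2, 0.55 for Tdgf1, 0.37 for Pou5f1, 0.35 for Lin28a, 0.27 for Esrrb and 0.19 for Nanog. Klf4 and Sox2 thus have CpG-rich promoters, with 40 and 27 CpG dinucleotides in 300 bases, whereas the Nanog promoter has 4. Over 17492 protein-coding promoters, the median ratio was 0.69 for genes outside LADs (quartiles 0.35 and 0.87) and 0.18 for genes inside (0.08 and 0.37). Nanog and Esrrb, although outside LADs, had ratios below the lower quartile of genes outside, and that of Nanog was near the median of genes inside. Zfp42, inside a LAD, had 0.44 with 11 CpG dinucleotides.

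In the sequences printed above, the Nanog promoter holds an octamer core on the minus strand, beginning 75 bases upstream of the start site, and a SOX match beginning 67 bases upstream, separated by 1 base. The arrangement TTTGCATNACAATG was found in 1 of the 17492 promoters, that of Nanog. Its spacing was read from Nanog itself, so this count is a description of that sequence. The Sox2 promoter has an octamer core 99 bases upstream. In windows not printed, Lin28a has a SOX match beginning 96 bases upstream of the start site and Esrrb one beginning 32 bases downstream. The octamer core was present in 2 of the 7 member windows and in 4.17% of all promoters, and the SOX motif in 3 of 7 and 11.2%. In all promoters the octamer core was found in 5.75% of genes overlapping a LAD and 3.63% of genes outside. For the SOX motif these shares were 18.6% and 8.70%. The KLF-type box went the other way, with 3.02% and 3.89%, and the ESRRB-type element had 0.40% and 0.31%. The median share of G and C bases in promoters was 44% for genes inside LADs and 59% for genes outside. Whether base composition underlies the motif shares was not tested. The KLF-type box and the ESRRB-type element, present in 3.66% and 0.33% of promoters, had 0 matches in the 7 windows, and the Zfp42 window has an octamer core and a KLF-type box.

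A list of 36 other genes of the pluripotency network, drawn from general knowledge, was placed in the same way. It had 9 genes inside LADs, 0 cut and 27 outside. The 25% overlapping a LAD was at the background of 25.1% of protein-coding genes that overlapped one, so the list did not stand apart in number. With gaps up to 250 kb between LADs joined, 13 of the 36 (36.1%) overlapped a LAD, against 28.0% of protein-coding genes. Its genes outside had a median distance of 588.5 kb to a LAD.

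The 9 genes inside LADs had different roles. Dppa2 shared the LAD of Dppa4. Zfp42, which encodes the zinc finger protein Rex1 (chromosome 8, 43295067 to 43307009), ended 6.06 kb short of the border of a LAD of 1835 kb. Nr5a2, a nuclear receptor gene (chromosome 1, 136842562 to 136960448), began 7.99 kb inside a LAD of 1427 kb. With borders resolved to about 2.5 kb, both genes were close to the edge. Tet2 (chromosome 3, 133463677 to 133545136), which encodes an enzyme that oxidises 5-methylcytosine, lay deep in a LAD of 2212 kb, 480.5 kb from its nearer border, although its promoter had a CpG ratio of 1.17. The family member Tet1 was outside, 713.4 kb from a LAD.

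Foxd3, a forkhead factor gene (chromosome 4, 99656299 to 99658671), lay in a LAD of 692.5 kb, and Tcl1, a cofactor of the kinase Akt (chromosome 12, 105216753 to 105222737), in one of 365.0 kb. Zscan4c, a gene of the early embryo (chromosome 7, 11005745 to 11010547), was in a LAD of 5482 kb with 57 protein-coding genes and had 100% of bases in LADs within 1 Mb. It belongs to a family of near-identical copies. Lin28b and Fbxo15 completed the 9. Genes within 50 kb outside a LAD included Mycn at 5.89 kb, which encodes a transcription factor, and Utf1 at 31.7 kb, which encodes a chromatin protein of embryonic cells. Nodal, the ligand that Cripto serves, and its inhibitors Lefty1 and Lefty2 were at 2176, 2856 and 2814 kb, all farther than Tdgf1 at 390.1 kb. Lefty1 and Lefty2 lie close together on chromosome 1. Gdf3, the TGF-beta family ligand described above, was nearer to a LAD than Tdgf1, at 123.6 kb.

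Genes grouped with the members, called related genes here, gave a further comparison. Of 7 groups, 6 were defined by a shared gene symbol and 1 (Tdgf1 and Cfc1) as a named pair. A shared symbol, as in the Dppa group, need not mean common descent, and no gene sequences were compared for this grouping. Beside the members they contain 55 other protein-coding genes, of which 14 were inside LADs, 3 cut by a border and 38 outside. Of these 55 genes, 5 are also on the list of 36. The share overlapping a LAD, 30.9%, was near the background of 25.1%. Placement differed within several groups.

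Lin28b (chromosome 10, 45376617 to 45486314), which shares the let-7 blocking function of Lin28a, lay inside a LAD of 5392 kb, whereas Lin28a was 2345 kb from one. Esrrg (chromosome 1, 187608510 to 188214885) was inside a LAD of 2867 kb, and Esrra, 831.5 kb from a LAD, was outside like Esrrb. In the Dppa group, named for developmental pluripotency association, Dppa1, Dppa2 and Dppa4 were inside LADs, and Dppa3 and Dppa5a were outside. Cfc1, the relative of Tdgf1, was outside at 495.6 kb.

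The counts for the next families include the member itself. In the Pou family, 6 of 15 genes (40%) overlapped a LAD, against 25.1% of protein-coding genes. Among those inside were Pou1f1, Pou3f2, Pou3f4 and Pou4f2, which act in the pituitary, brain and sensory neurons. Pou4f2 ended 1.31 kb from a border, less than the border resolution of about 2.5 kb. Pou5f2, the closest relative of Pou5f1 by name, met a border within its 1.40 kb, so its placement was not resolved: it was inside with borders moved out by 2.5 kb and outside with borders moved in. Pou4f1 was 8.18 kb, Pou2f1 41.7 kb and Pou3f3 48.4 kb from a LAD, named because they lay within 50 kb of one. Pou5f1 was at 958.2 kb, and Pou3f1 at 1097 kb, Pou2f3 at 2822 kb and Pou6f1 at 2911 kb were farther still.

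In the Sox family, 5 of 19 genes (26.3%) were inside LADs, near the 21.8% of all protein-coding genes: Sox5, Sox6, Sox11, Sox14 and Sox17. Sox3 and Sox1, the closest relatives of Sox2, were 9.73 kb and 2055 kb from a LAD. Sox18 at 15.2 kb, Sox21 at 18.9 kb and Sox9 at 21.9 kb were also within 50 kb. In the Klf family, 0 of 17 genes were inside, against 21.8% of protein-coding genes, and 2 were cut by a border, against 3.36%. The genes cut were Klf8 and Klf12, with 65.4% and 79.2% of their length in LADs. These family counts were not tested. Klf2 and Klf5, which overlap with Klf4 in embryonic stem cells, were 1054 kb and 310.2 kb from a LAD.

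For comparison, 13 genes of fibroblasts and mesenchymal cells were all outside LADs (0 of 13 overlapping, against 25.1% of protein-coding genes). Their median distance was 1106 kb, with Pdgfra, a growth factor receptor gene, nearest at 73.9 kb and the homeobox gene Prrx1 farthest at 2729 kb. The median share of bases in LADs within 1 Mb was 0% for the fibroblast genes. It was 30.4% for the 9 pluripotency genes, 36.8% for the list of 36 and 22.8% over all protein-coding genes. Within 250 kb the median was 0% both for the 9 genes and over all protein-coding genes, and the fibroblast list was not summarised at that size. Most of the 13 fibroblast genes had been placed in an earlier analysis of these data. Ranges of distance overlapped between the fibroblast genes (73.9 to 2729 kb) and the pluripotency genes outside LADs (144.7 to 2345 kb). The bars by gene list show the counts. No test was made of any of these lists, because the genes were chosen by name and are not replicates.

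**Figure D5:**
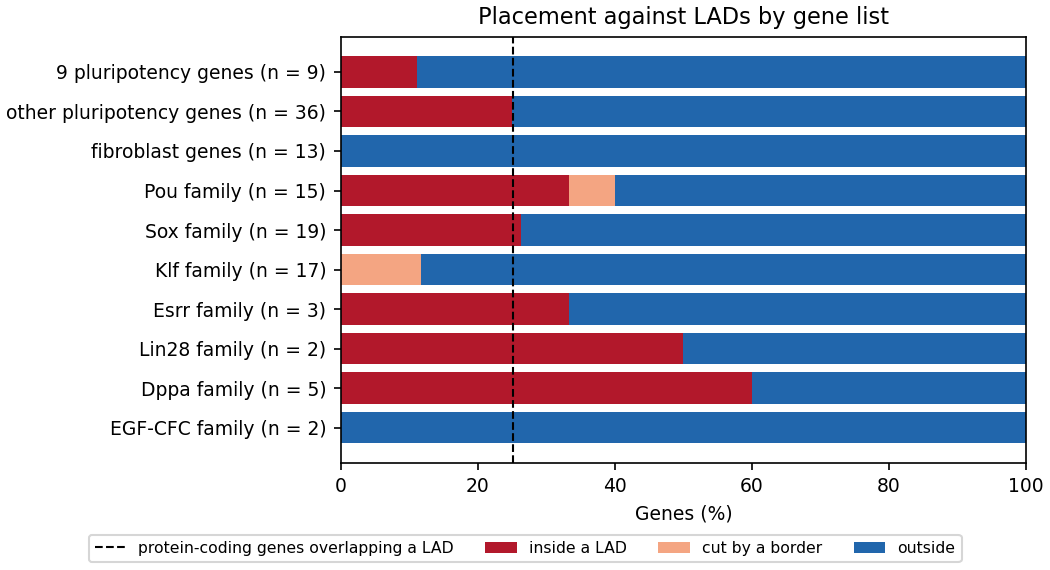
Percent of genes wholly inside a LAD (dark red), cut by a border (orange) or outside (blue) for each gene list, with the number of genes in brackets; families, grouped by gene symbol or as a named pair, include the member genes. The dashed line marks the 25.1% of all protein-coding genes that overlapped a LAD; the 9 pluripotency genes (1 inside) and the 36 other pluripotency genes (9 inside) are the top rows.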

How the data were processed

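The data used were 1 BED list of LADs, whose start and end positions in base pairs are the authors' deposited values. The deposited score column held 0 in all 1437 lines. The submitters' processing notes name Bowtie2 and mm10. The domain caller, its threshold, and the use of IgG or the spike-in are not given in the sources used here. That both Lamin B1 libraries underlie the list was read from the word merged in its name. Spacing between domains was never below 52499 bp, so shorter LAD-free stretches cannot be seen.

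Positions were counted from 1. A distance is the number of bases between a gene body and a LAD. Gene bodies, symbols and biotypes came from RefSeq (GRCm38.p6), and interval gene counts use gene midpoints. Promoters use the outermost listed start site. Python 3.11.15, numpy 2.4.6 and pandas 2.3.3 were used. No significance test was run, because the list has 1 value per position. The members and lists were chosen with earlier results of these data known. Genes named are the 9 members, their nearest neighbours, listed or related genes in or within 50 kb of a LAD, and the extremes of the fibroblast list; partners, relatives and other genes of the same interval or LAD were added after their values were seen. A few genes are counted but not reported here by name.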

Additional observations from a re-analysis of the deposited data

How the results depend on the processing

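The count of 1 member inside a LAD held with borders moved out or in by 2.5 kb, with LADs of at least 100 kb or 500 kb, and with gaps up to 100 kb or 250 kb joined. The gene start site and the midpoint could not change it, because no member was cut by a border. For Dppa3 and Dppa4 the gene body stood in for the start site. The median distance over the 9 genes, with Dppa4 at 0, was 390.1 kb and lay between 387.6 and 393.3 kb. With LADs of at least 100 kb, which leaves out the 72.5 kb LAD, Dppa3 went from 144.7 to 276.5 kb, and it stayed there with at least 500 kb. With at least 500 kb, Klf4 went to 2421 kb, Lin28a to 5450 kb and Pou5f1 to 1738 kb, all by construction. The median interval of the 8 genes outside, 3095 kb, became 3380 kb with LADs of at least 100 kb and 4174 kb with at least 500 kb. The median LAD share around the members was 30.4% at 1 Mb, 0% at 250 kb and 46.8% at 2 Mb each side. The background of 25.1% became 32.7% with all annotated genes, 20.5% without olfactory and vomeronasal receptors, 25.8% on the members' own chromosomes and 23.8% by gene midpoint. The median promoter CpG ratio of 0.37 became 0.50 in the central part of the window. With gaps up to 250 kb joined, 13 of the 36 other pluripotency genes overlapped a LAD in place of 9 (36.1%, against 28.0% of protein-coding genes), and 21 of the 55 related genes in place of 17 (38.2%). The recounts of the gene lists, intervals and their backgrounds were chosen after seeing the data. No paired analysis was possible because the list used has no values per library. For the same reason neither Lamin B1 library could be left out in turn. The read depth is unknown, which limits what can be said of short domains such as the 72.5 kb LAD beside Dppa3 and Nanog.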
